A study of Mus musculus with 2 samples.

Results

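Ependymal cells of the ventral hippocampus (vHPC) were the 116 cells that carry the cluster name Ependymal in the deposited table of 8477 single cells, 62 from a wild-type (WT) and 54 from an L151 mouse library. The name is the authors' own, was given from marker genes, and the cells form 1 cluster and 1 of the 17 main cell types. The WT library comes from mice with the ADCY2-V151 form of adenylyl cyclase 2, and the L151 library from mice homozygous for ADCY2-L151, in which CRISPR/Cas9 editing replaced Val151 by Leu in every cell of the animal. The L151 line goes back to a single heterozygous founder, and the donor DNA also carried silent changes, for genotyping and to protect it from Cas9. Both groups were males, aged 11 to 12 weeks by the labels, on a C57BL/6J x C57BL/6N background, and no treatment is named for them. Tissue was digested with papain, and single cells entered 10x Genomics droplets, where a random tag, the unique molecular identifier (UMI), is attached to every RNA captured at its 3′ end so that copies made by PCR count only once. The study excluded 1 sample of each genotype, which leaves 1 library per genotype. Differences between the libraries are therefore given without a test, and genotype cannot be told apart from dissection, dissociation or capture.

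Ependymal cells form the epithelium between brain tissue and cerebrospinal fluid. Each carries a tuft of motile cilia whose beat moves the fluid along the ventricle wall, and the ventral hippocampus borders on the temporal part of the lateral ventricle. Building so many cilia depends on the transcription factor Foxj1, which switches on genes of the ciliary axoneme. Ccdc153 encodes a component of the complex that regulates ciliary dynein, and Tmem212 encodes a membrane protein used as a marker of the type. Counts per gene were not analysed here, so the name was not checked against these markers, and what follows describes the size and quality of the cells' RNA profiles. Adcy2 encodes a membrane-bound enzyme that makes the second messenger cAMP. Its expression in ependymal cells was not analysed here.

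In all, 4055 WT cells with 22049587 UMIs and 4422 L151 cells with 22276085 UMIs were available. The libraries share 3 cell barcodes, of which 0 belong to an ependymal cell. Blood cells and putative doublets had been removed by the authors before deposit, and no doublet caller was run here. Whether any of the 116 cells is a doublet was not tested.

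Ependymal cells were a small type with many UMIs per cell, though other types, such as vascular cells with 51 cells, were smaller. Ependymal cells made up 1.53% of WT cells (62 of 4055, exact Clopper-Pearson 95% interval 1.17 to 1.96%) and 1.22% of L151 cells (54 of 4422, 0.919 to 1.59%). The same cells held 2.71% of all UMIs of the WT library and 2.22% of those of the L151 library, so that their part of the UMIs exceeded their part of the cells in both. Their part of the mitochondrial UMIs lay in between, with 2.20% in WT and 1.60% in L151. Divided by the WT share, the L151 share was 0.799 (0.544 to 1.17), and 0.868 (0.591 to 1.27) with neurons left out of the denominator. The intervals cover counting error within these libraries only and are no test between genotypes.

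The UMI number of an ependymal cell ranged from 3022 to 14477 in WT, with a median of 9303 and quartiles of 7007 and 12871. In L151 it ranged from 3597 to 13096, with a median of 9593.5 and quartiles of 7285 and 11223. The L151 median lay within the WT quartiles, but 14 of the 62 WT cells had more UMIs than the deepest L151 cell and 1 had fewer than the shallowest. The direction of the library difference depended on the summary. The L151/WT ratio was 1.03 for medians, 0.948 for means, and 1.22 for medians without the cells of at least 13000 UMIs, a number chosen after the values were seen. That cut removed 15 WT cells and 1 L151 cell, so the rise of the ratio followed from the choice. Among the 13 types with at least 25 cells in each library, the ratio of medians ran from 0.404 to 1.08 and was below 1 in 9 of them.

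The number of detected genes, those with at least 1 UMI in the cell, also had similar medians. WT ependymal cells had between 1584 and 4244 genes with a median of 3208, and L151 cells between 1734 and 3853 with a median of 3173.5. The L151/WT ratio was 0.989. It became 1.09 without the cells of at least 13000 UMIs, a cut that removed mostly WT cells. The lower quartile was 2665.5 genes in WT and 2747.5 in L151. Ependymal cells contained no shallow profiles: 0 of 116 had fewer than 1000 genes, a count that allows a share of up to 2.59%, whereas 22.2% of all cells in the table fell below this number. Only 6 of the 116 had fewer than 2000 genes. The types differ widely here too: over both libraries, their lower quartile ran from 424 genes in meningeal cells to 3083 in OPC-COP, the committed oligodendrocyte precursors. It was 2716.5 in ependymal cells and 2571.5 in oligodendrocytes.

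**Figure D1:**
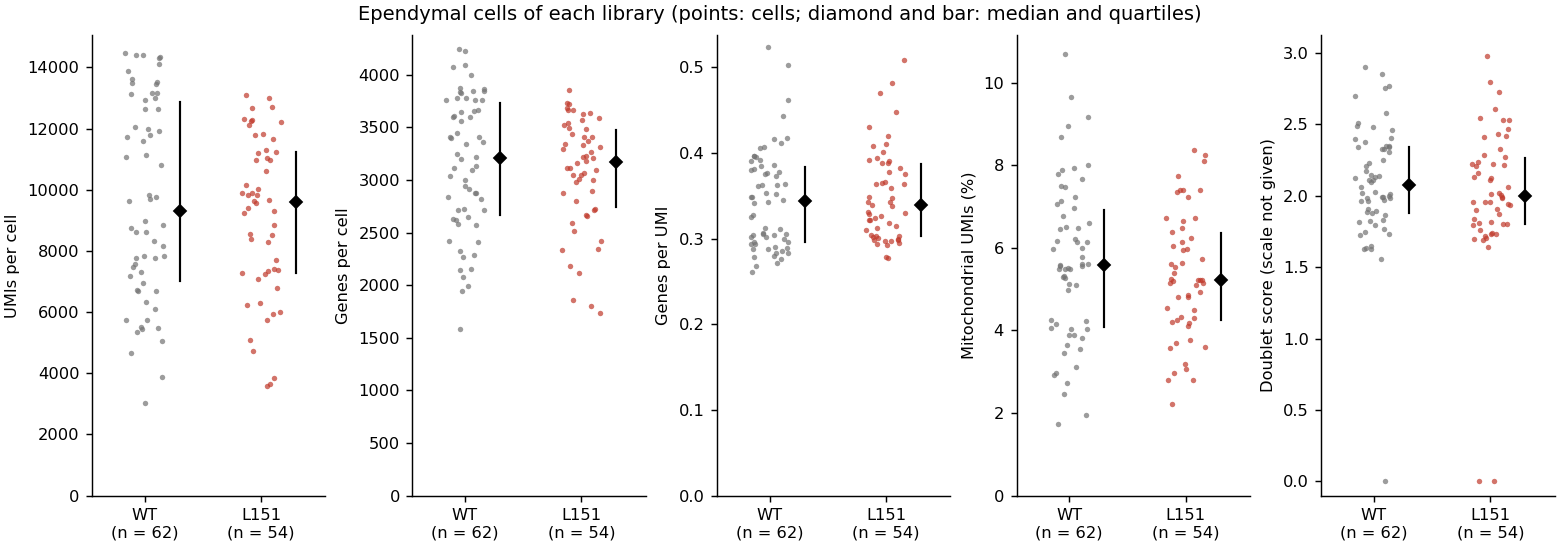
Each point is an ependymal cell of the WT (grey, n = 62) or L151 (red, n = 54) library, shown for UMIs, genes, genes per UMI, percent mitochondrial UMIs and doublet score; the diamond is the median and the bar spans the quartiles over cells. The medians lie close together (9303 and 9593.5 UMIs, 3208 and 3173.5 genes), while the WT cells reach further up in UMIs, to 14477 against 13096.

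Ranked by median UMIs, ependymal cells stood first among the 17 main cell types in both libraries. Oligodendrocytes, the myelin-forming glia, followed with medians of 8717.5 UMIs in WT and 7810 in L151, and OPC-COP, the committed oligodendrocyte precursors, with 8039.5 and 7303. The quartiles of these neighbours overlapped those of ependymal cells, since the upper quartile of oligodendrocytes was 10078 UMIs in WT and 9276 in L151. Compared with the median of all other cells of their library, 60 of 62 WT ependymal cells (96.8%, 88.8 to 99.6%) and 51 of 54 L151 cells (94.4%, 84.6 to 98.8%) were deeper. By median genes they ranked 3rd in WT and 2nd in L151. OPC-COP had the most genes, with 3677.5 in WT and 3563 in L151, and Cajal Retzius neurons, early-born neurons of the outer cortical layer, had 3299.5 in WT and 2937 in L151.

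The first place holds among the main cell types, where other types pool several clusters. Among the 33 clusters, ependymal cells ranked 4th by median UMIs in WT and 3rd in L151. The granule neuron cluster Neu_DG_2 (10573.5 UMIs in WT and 11239 in L151) and the CA3 pyramidal neuron cluster Neu_CA3_2 (9547.5 and 10616) lay above them in both libraries, and Oligodendrocytes_3 (9685) in WT. When cells with over 10% mitochondrial content were left out, DG glutamatergic neurons took the first place with 9726 UMIs in WT and 11645 in L151, and ependymal cells the second.

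**Figure D2:**
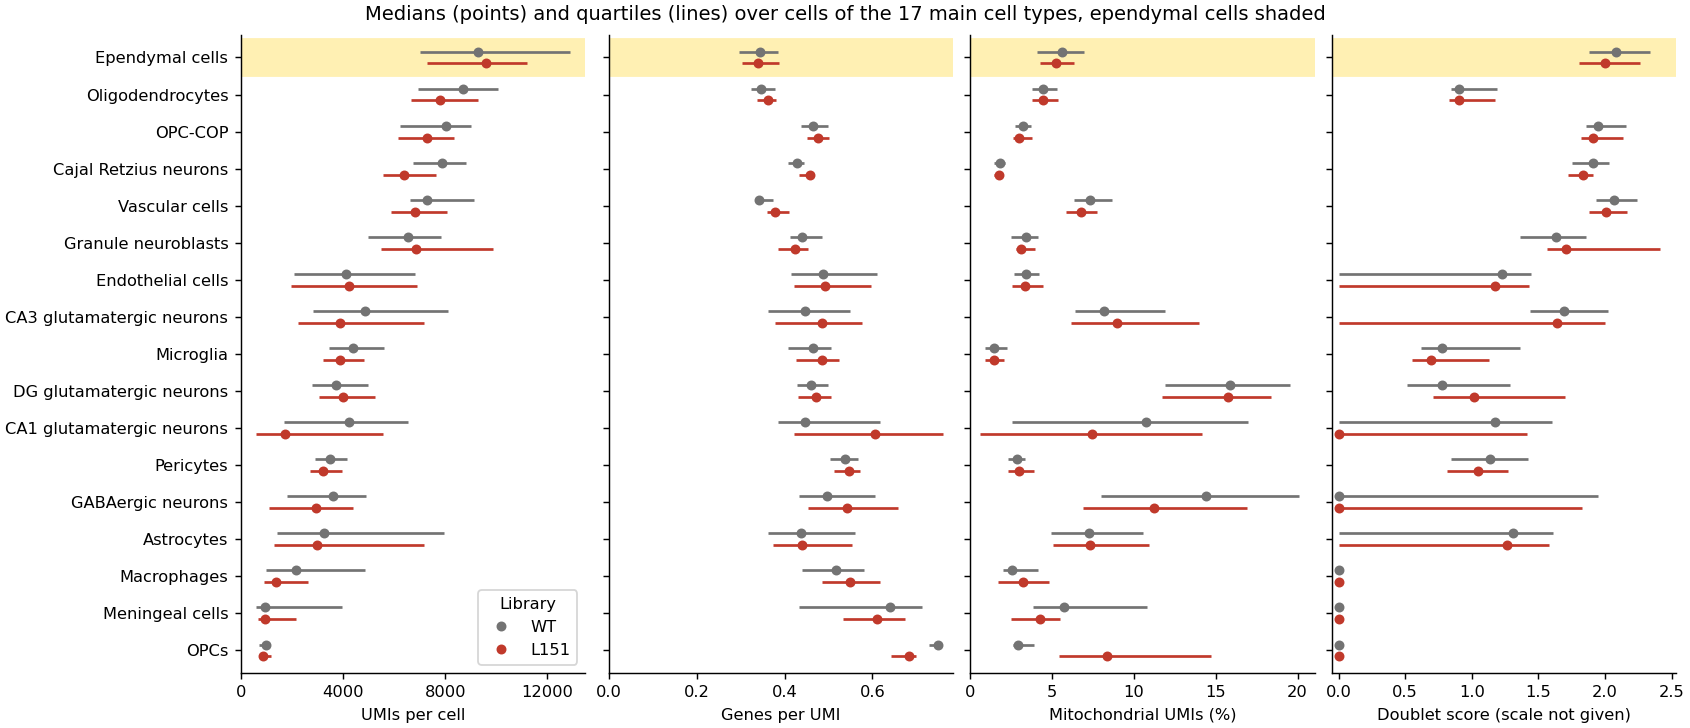
Median (points) and quartiles (lines) over the cells of each of the 17 main cell types, grey for WT and red for L151, for UMIs per cell, genes per UMI, percent mitochondrial UMIs and doublet score, with types ordered by the median UMIs of both libraries together. Ependymal cells, shaded, have the highest median UMIs (9303 in WT and 9593.5 in L151), low genes per UMI, a middle mitochondrial percentage and a high doublet score.

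Genes per UMI, the number of different genes divided by the number of molecules, was low in ependymal cells. The WT cells ranged from 0.261 to 0.524 with a median of 0.344, and the L151 cells from 0.277 to 0.509 with a median of 0.339, a ratio of 0.986 that was 1.02 for means and 1.03 for the sum of genes over the sum of UMIs. Counted from the highest, ependymal cells ranked 16th of the 17 types in WT, just above vascular cells with 0.342, and 17th in L151, where oligodendrocytes with 0.362 were next above them. It was lower in deeper cells. Across ependymal cells, UMIs and genes per UMI had a Spearman's rho of -0.95 in WT (62 cells) and -0.96 in L151 (54 cells), where the UMIs enter both measures. This was so in every type. Over both libraries together rho ran from -0.53 in oligodendrocyte progenitors to -0.99 in endothelial cells, with -0.96 in ependymal cells.

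In a shared window of depth, genes per UMI of ependymal cells overlapped those of several other types. Cells of both libraries with UMIs between 7231.5 and 11927, the quartiles of ependymal cells, were compared over the 12 types with at least 10 such cells. Median depth still differed within it, from 8408 UMIs in Cajal Retzius neurons to 9971 in DG glutamatergic neurons, with 9593.5 in ependymal cells. Here the 58 ependymal cells had a median of 0.342 genes per UMI and ranked 8th from the highest, between CA3 glutamatergic neurons with 0.346 and vascular cells with 0.341. Oligodendrocytes had 0.341 and astrocytes 0.338. OPC-COP stood at the top with 0.452 and microglia, the immune cells of the brain, at the bottom with 0.324. The rank was 7th of 12 types in WT cells alone and 10th of 11 in L151 cells alone. The quartiles of neighbouring types overlapped, at 0.313 to 0.363 in ependymal cells and 0.326 to 0.357 in oligodendrocytes. In a wider window, from the 10th to the 90th percentile of UMIs, ependymal cells ranked last of 14 types, but they were also the deepest there, with a median of 9593.5 UMIs compared with 6628 in microglia.

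The comparison in bands of 2000 UMIs, chosen after the values were seen, set narrower limits on depth. Between 6000 and 8000 UMIs, 25 ependymal cells had a median of 2717 genes, beside 2651.5 in oligodendrocytes and 2659 in astrocytes. Between 12000 and 14000 UMIs, 22 ependymal cells had 3746.5 genes, beside 3780.5 in oligodendrocytes and 3759 in astrocytes. OPC-COP cells of 6000 to 8000 UMIs had 3346 genes. Within these bands, the gene numbers of ependymal cells lay close to those of oligodendrocytes and astrocytes.

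**Figure D3:**
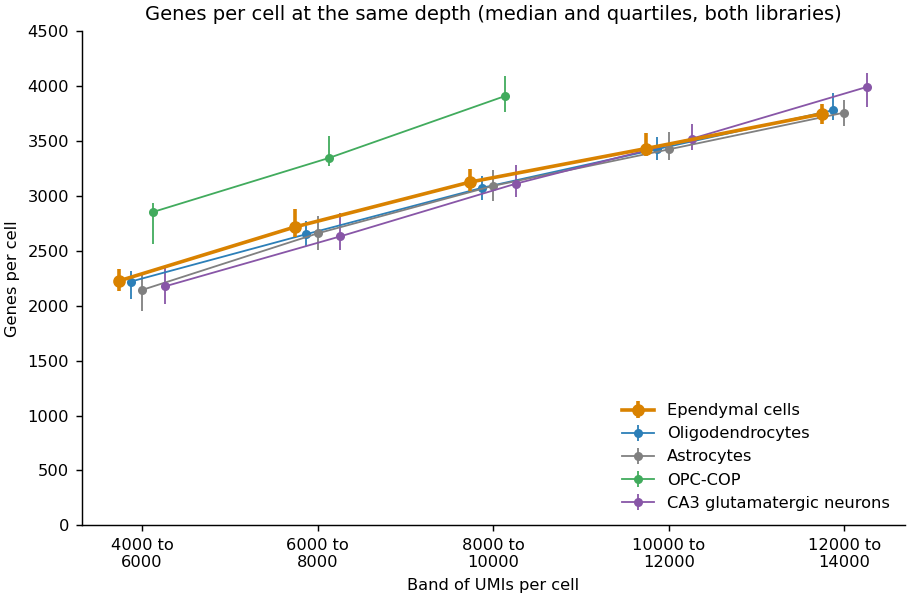
Median genes per cell (points, with quartiles as bars) in bands of 2000 UMIs for ependymal cells and 4 other types, over both libraries and for bands with at least 10 cells. Ependymal cells (orange) follow oligodendrocytes and astrocytes from 2227 genes in the band of 4000 to 6000 UMIs to 3746.5 in the band of 12000 to 14000, and OPC-COP lies above them.

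The mitochondrial content of ependymal cells was moderate. It ranged from 1.72 to 10.7% of a cell's UMIs in WT, with a median of 5.58% and quartiles of 4.09 and 6.91%. In L151 it ranged from 2.21 to 8.38%, with a median of 5.22% and quartiles of 4.26 and 6.35%. The L151/WT ratio of the medians was 0.936, and the difference of the medians (L151 minus WT), -0.359 percentage points, was smaller than the distance between the quartiles of either library. The upper quartile was 1.69 times the lower in WT and 1.49 times in L151, a spread that ranked 10th and 6th from the narrowest of the 17 types. Only 1 of the 116 cells exceeded 10% (0.862%, 0.0218 to 4.71%), compared with 29.8% of all cells in the table. The types differ widely in this: over both libraries, their upper quartile ran from 2.10% in Cajal Retzius neurons to 19.0% in DG glutamatergic neurons. It was 6.62% in ependymal cells and 5.33% in oligodendrocytes. Ependymal cells ranked 8th of 17 in both libraries, above oligodendrocytes (4.44% in WT and 4.45% in L151). In both, they lay below the principal and GABAergic neurons, astrocytes (7.28% in WT and 7.31% in L151) and vascular cells (7.28% and 6.79%). Meningeal cells in WT (5.75%) and oligodendrocyte progenitors in L151 (8.34%) also lay above them.

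As a number of molecules rather than a percentage, mitochondrial RNA stood high in these deep cells. The median number of mitochondrial UMIs per ependymal cell was 555.5 in WT and 496 in L151, rank 2 of the 17 types in both libraries. Vascular cells came first in WT with 577, and DG glutamatergic neurons in L151 with 561. For comparison, oligodendrocytes had 382 in WT and 347.5 in L151.

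Deeper ependymal cells also had a larger mitochondrial percentage. With the cells of each library divided into 3 parts by depth, from the WT cells with the fewest UMIs (3022 to 7754) to those with the most (11905 to 14477) the median went from 4.23 to 6.47%, and in L151 from 4.31 to 6.27%. Spearman's rho between UMIs and mitochondrial percentage was 0.51 over the 62 WT cells (Pearson's r 0.51) and 0.48 over the 54 L151 cells (Pearson's r 0.43), within 1 library each. In the other 16 types rho ran from -0.36 to 0.68 over both libraries together, with values above that of ependymal cells in CA1 glutamatergic (0.68) and GABAergic neurons (0.504, against 0.502). Oligodendrocytes had -0.28. These correlations describe cells of the same libraries, and the mitochondrial UMIs are part of the UMIs.

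The doublet score, a value per cell that the authors computed in their search for droplets with more than 1 cell, was high in ependymal cells. On which scale it was deposited is not stated in the sources used here, so that only order and differences are described. In WT it ranged from 0 to 2.90 with a median of 2.08, and in L151 from 0 to 2.98 with a median of 2.00, a difference (L151 minus WT) of -0.0797. Ependymal cells ranked 1st of the 17 types by score in WT, ahead of vascular cells with 2.07, and 2nd in L151 after vascular cells with 2.004 against 1.999. With 21 and 30 vascular cells and overlapping quartiles, the order of these neighbours cannot be told. The rank also depends on cells with a score of exactly 0. Among cells above 0, ependymal cells ranked 3rd in both libraries, with medians of 2.10 in WT and 2.01 in L151, below meningeal cells (2.52 and 2.70, most of whose cells are at 0), macrophages in WT (2.38) and vascular cells in L151 (2.02).

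Many cells in the table have a score of exactly 0, among them 24.2% of the WT and 28.6% of the L151 library. Of the ependymal cells this held for 1 of 62 in WT (1.61%, 0.0408 to 8.66%) and 2 of 54 in L151 (3.70%, 0.452 to 12.7%). All other ependymal cells had a score of at least 1.56. The share at 0 differs widely between types. Over both libraries it ran from 1.96% in vascular cells to 100% in oligodendrocyte progenitors. It was 2.59% in ependymal cells, 3.88% in OPC-COP and 5.77% in Cajal Retzius neurons. A score of 2 or more was found in 35 of 62 WT cells (56.5%, 43.3 to 69.0%) and 27 of 54 L151 cells (50%, 36.1 to 63.9%), compared with 11.9% and 11.1% of the cells of all other types. These other types were pooled. Among them, vascular cells also had medians above 2, with 2.07 in WT and 2.004 in L151. A score above the upper quartile of all other cells of the library was found in 60 of 62 WT and 52 of 54 L151 ependymal cells.

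The score was not highest in the deepest ependymal cells. Over the same 3 parts its median went from 2.32 in the WT cells with the fewest UMIs to 1.98 in those with the most, and from 2.42 to 1.93 in L151. Spearman's rho between UMIs and score was -0.36 in WT (Pearson's r -0.28) and -0.50 in L151 (Pearson's r -0.27), and -0.38 and -0.60 without the cells at 0. Over both libraries together, rho could be computed for 16 types and was negative in 2 of them, ependymal cells (-0.42) and vascular cells (-0.12). In the other 14 types it was positive, reaching 0.70 in astrocytes and 0.80 in CA1 glutamatergic neurons. In these types 35.8 and 48.4% of the cells had a score of 0. In the same range of 7231.5 to 11927 UMIs used above, ependymal cells ranked 3rd of 12 types by score with a median of 1.98. Granule neuroblasts (2.33) and vascular cells (1.99) lay above, OPC-COP (1.96) and Cajal Retzius neurons (1.93) just below, and oligodendrocytes lowest with 0.927. The rank was 1st of 12 types in WT cells alone and 5th of 11 in L151 cells alone.

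**Figure D4:**
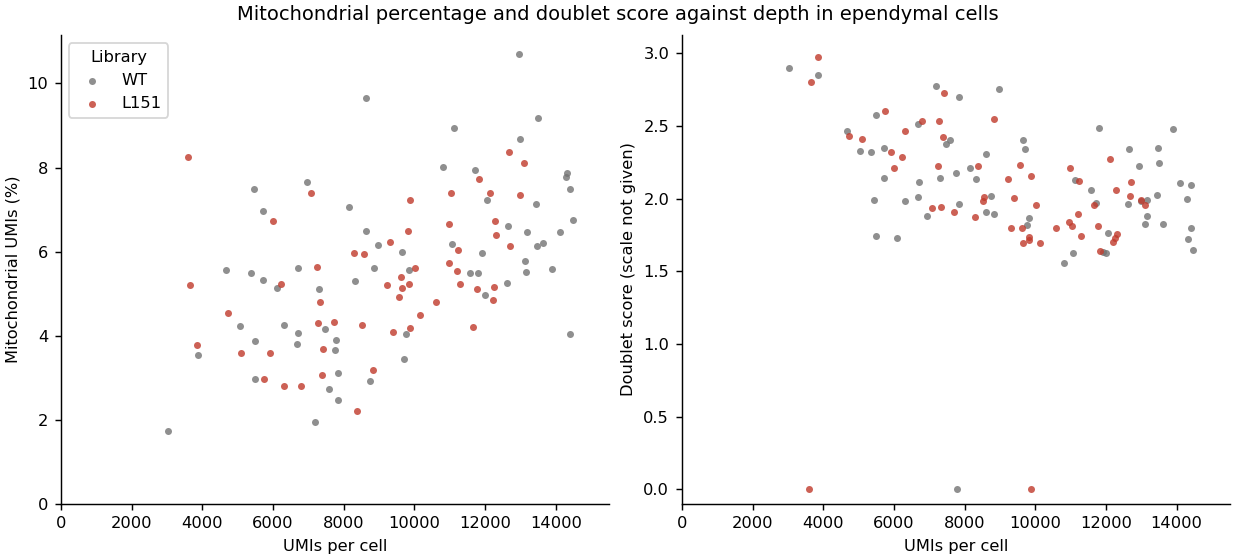
Percent mitochondrial UMIs (left) and doublet score (right) against UMIs per cell, 1 point for each ependymal cell of the WT (grey, 62 cells) and L151 (red, 54 cells) libraries. In both libraries deeper cells tend to a higher mitochondrial percentage and a lower score (Spearman's rho 0.50 and -0.42 over the 116 cells), and 3 cells lie at a score of 0.

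The deepest ependymal cells were counted unevenly in the libraries. Of the WT cells, 15 of 62 (24.2%, 14.2 to 36.7%) had at least 13000 UMIs, compared with 1 of 54 L151 cells (1.85%, 0.0469 to 9.89%), an L151/WT ratio of 0.0765. The number 13000 was chosen because the libraries differ there, so this is a description of these cells and no test. At 12000 UMIs the counts were 19 of 62 (30.6%) and 9 of 54 (16.7%) with a ratio of 0.544, and at 11000 UMIs 26 and 16 cells with a ratio of 0.707, both nearer to 1. At 14000 UMIs there were 6 WT cells (9.68%, 3.63 to 19.9%) and 0 of 54 L151 cells (0 to 6.60%). By the limit of 3 cells, the count of 0 allows a share of up to 5.56%. Among all other types together, 3.58% of WT and 3.48% of L151 cells had at least 13000 UMIs, a ratio of 0.972. In oligodendrocytes these shares were 4.77 and 3.45%, and in astrocytes 5.63 and 4.66%. At 12000 and 11000 UMIs, the ratio for all other types together was 0.891 and 0.873. Single types differed there. Oligodendrocytes had 7.77% in WT and 4.55% in L151 at 12000 UMIs, and 14.3 and 7.52% at 11000. Astrocytes and CA1 glutamatergic neurons also had lower shares in L151 at both numbers. CA3 glutamatergic neurons had higher ones, with 6.28 and 8.63% at 12000 UMIs and 9.42 and 11.9% at 11000. The intervals cover counting error only and not the choice of 13000 UMIs, and no spread between mice can be given.

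The WT ependymal cells came close to the upper end of the depth range of the table. The highest UMI number in the table is 14989 in WT and 14988 in L151, and 0 of the 8477 cells have 15000 or more, although the stated filters, on genes, mitochondrial content, blood cells and putative doublets, name no UMI maximum. Ependymal cells stayed below the stated maximum of 5000 genes, with at most 4244. Whether deeper ependymal cells were present before filtering was not tested.

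**Figure D5:**
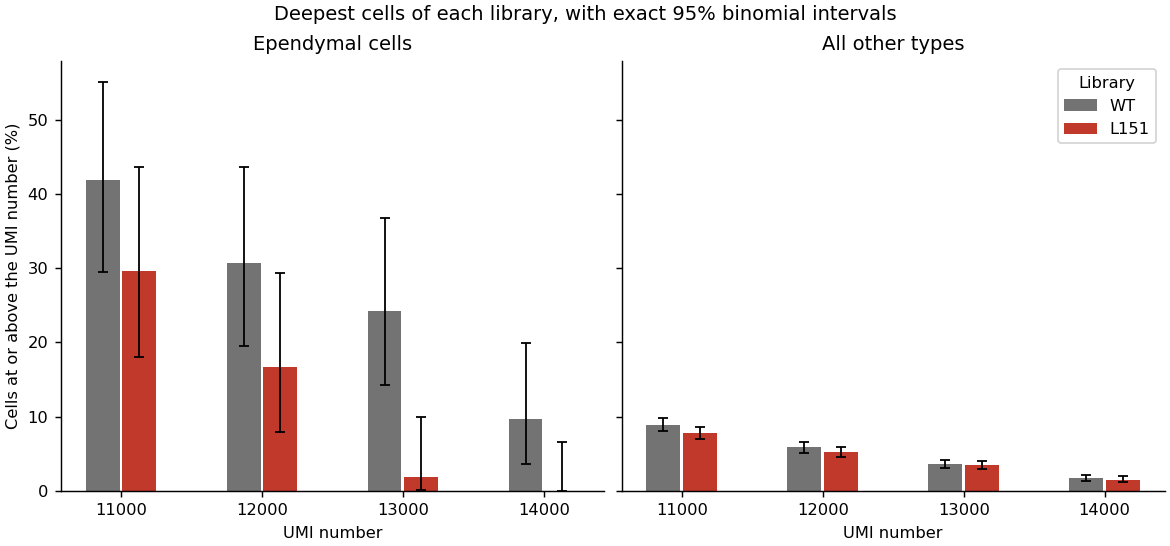
Percent of cells with at least 11000, 12000, 13000 or 14000 UMIs among ependymal cells (left) and all other types together (right) (grey, WT; red, L151), with exact 95% binomial intervals as bars. At 13000 UMIs, a number chosen because the libraries differ there, ependymal cells show 24.2% in WT and 1.85% in L151. The other types show 3.58 and 3.48%.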

How the data were processed

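Single cells of the vHPC of 1 WT and 1 L151 library were analysed from the deposited table of cells. The submitters' processing notes name Cell Ranger 3.0.2, Seurat 3.1.3 and the build mm10. The deposited UMI and gene counts are whole numbers per cell and not normalized. Mitochondrial content was deposited as a percent of the UMIs of each cell, and mitochondrial UMIs computed from it were whole numbers in 100% of cells (tolerance 1e-06). The deposited doublet score comes from the authors, who used scran for doublets. Neither its scale nor any log transform is stated in the sources used here. The authors kept cells of 320 to 5000 genes with at most 25% mitochondrial content, and 0 cells of the table lie outside these limits. The analysis took in all 8477 cells. The number of per-sample columns with no matching sample was 0.

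Medians, quartiles, ranks, correlations over cells and exact Clopper-Pearson 95% intervals were computed with scipy 1.17.1, numpy 2.4.6 and pandas 2.3.3 under Python 3.11.15. Plots were made in matplotlib 3.10.9. For the L151/WT ratio of a share, the bounds were derived from an exact binomial interval for how many of the cells counted came from L151. Only the interval of the ratio of shares and the ranking of types were tested on simulated data. The simulated types had evenly spaced medians and little spread, so that the test does not bear on close ranks here. A share of 0 was given the limit that 3 cells of the total allow. This is not the exact interval: for 0 of 54 cells the limit is 5.56% and the exact upper bound 6.60%. With 1 library per genotype no test was made, cells were not treated as replicates, and profiles could not be thinned to equal depth. Cells within a shared window of UMIs were compared instead, where median depth still differs between types. The ependymal cells and the measures were chosen with earlier results of these data known. No gene was named from values, and marker genes are named as background only. The alternatives were minimums of genes and UMIs, a maximum of mitochondrial content, means, other forms of genes per UMI, other denominators, clusters, larger types and other windows of depth. UMI numbers of the deepest cells, and leaving out such cells or those with a score of 0, were chosen after the data were seen.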

Additional observations from a re-analysis of the deposited data

How the results depend on the processing

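Of 193 values recomputed under the alternatives, 145 kept their rank or stayed within the interval over cells of the reported value, 44 moved and 4 changed direction. The 4 are L151/WT ratios near 1. For means, the ratio of UMIs was 0.948 in place of 1.03 and that of genes per UMI 1.02 in place of 0.986, the latter being 1.03 for the sum of genes over the sum of UMIs. Without cells of at least 13000 UMIs, 15 in WT and 1 in L151, the ratio of genes was 1.09 in place of 0.989. The WT medians were then 7843 UMIs and 2915 genes, the L151 medians 9560 and 3163, and the ratio of UMIs 1.22. That cut was chosen where the libraries differ and removed mostly WT cells, so the rise of both ratios was fixed by the choice. With ratios near 1 over all cells and 1 library per genotype, no direction of a library difference in UMIs, genes or genes per UMI is given. The medians without these cells and the UMI ratio of 1.22 still counted among the 145. Minimums of 500 genes or 1000 UMIs per cell moved 0 of the 28 values recomputed under each. Neither these nor a minimum of 1000 genes removed any of the 116 ependymal cells. Their medians and ratios of medians could not change there, so part of the 145 was fixed in advance. The shares depend on the denominator by construction. They were 1.63% in L151 with at least 1000 genes per cell, 2.14% in WT and 1.74% in L151 with at most 10% mitochondrial content, and 2.32% and 2.01% of non-neuronal cells. The 4 filters on cells turned the direction of 0 library ratios. For ratios of medians this was fixed in advance under the minimums of genes and UMIs, and the mitochondrial maximum removed only 1 ependymal cell. The ratio of shares, whose denominator changes, ran from 0.811 to 0.860 under these filters.

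Ranks are counted from the highest of the 17 types and depend on which cells the other types keep. With at least 1000 genes per cell, ependymal cells ranked 14 in WT for genes per UMI, 7 in WT for mitochondrial percentage, and 2 in WT and 3 in L151 for doublet score. With at most 10% mitochondrial content they ranked 2 in both libraries for UMIs, 4 in WT and 3 in L151 for genes, 15 in WT for genes per UMI, 5 in WT and 6 in L151 for mitochondrial percentage, and 2 in WT and 1 in L151 for doublet score. By means over cells they ranked 17 in WT for genes per UMI and 1 in L151 for doublet score. Among the 33 clusters, the ranks in WT and L151 were 4 and 3 for UMIs, 7 and 5 for genes, 29 and 32 for genes per UMI, 18 and 18 for mitochondrial percentage, and 3 and 5 for doublet score. Among the 13 types with at least 25 cells in each library, they were 2 in WT for genes, 13 in both for genes per UMI, 7 and 6 for mitochondrial percentage, and 1 in L151 for doublet score. In a shared window of UMIs the rank for genes per UMI was 14 of 14 types between the 10th and 90th percentile of UMIs, 7 in WT alone and 10 in L151 alone.

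Each genotype has 1 library, so the spread between mice is unknown, and with 54 and 62 cells the intervals of the shares are wide. No paired analysis was possible because each genotype has 1 library.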

Other observations

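Of the 3 ependymal cells with a doublet score of 0, the WT cell had 7773 UMIs and 2820 genes, and the L151 cells had 9881 UMIs with 3439 genes and 3597 UMIs with 1734 genes. The last of these had 8.26% mitochondrial UMIs, near the highest value of the L151 ependymal cells (8.38%), and is the ependymal cell with the fewest UMIs and genes in that library.

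The spread of depth among ependymal cells differed between the libraries. The upper quartile of UMIs was 1.84 times the lower quartile in WT and 1.54 times in L151. The upper quartile of mitochondrial UMIs per ependymal cell was 2.82 times the lower quartile in WT and 1.99 times in L151. These differences between the libraries were not tested.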
